A study of Mus musculus with 6 samples.

Results

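The Src-family kinases are cytoplasmic tyrosine kinases, and 7 of them (Fgr, Lyn, Fyn, Src, Lck, Blk and Yes1) were examined here together with Csk, the kinase that holds them in check. The 8 genes were taken by symbol from a table of 30037 named genes, in which all 8 had a row. Polyadenylated RNA had been sequenced from L-GMP cells, the granulocyte-macrophage progenitor-like fraction of a leukaemia, which were sorted out of the marrow of AML mice (acute myeloid leukaemia) aged 8 to 10 weeks. There were 2 groups, wild-type leukaemia (genotype WT) and Prmt6-/- leukaemia (genotype prmt6 KO), with 3 libraries each, and both groups carried the leukaemia. The labels name neither the oncogene that drives the disease nor the mouse strain, and they leave unsaid whether each library is its own animal. The p-values therefore reflect the spread between these samples alone, which may be technical. Prmt6 encodes a protein arginine methyltransferase, and its own value fell from 7.61 ± 0.20 (SD, n = 3) to 5.45 ± 0.03 (limma adjusted p = 3.57e-06). Its log2 fold change is -7.66 in the authors' deposited table, and exons of the antisense gene C130013H08Rik overlap it. The comparison asks how transcripts of this kinase family and its regulators differ when Prmt6 is lost.

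Src-family kinases sit at the inner face of the plasma membrane through a lipid-modified amino terminus. Csk phosphorylates a tyrosine in their carboxy-terminal tail, which folds the kinase into an inactive form, and phosphatases such as CD45 (Ptprc) remove that phosphate. In myeloid cells the active kinases phosphorylate tyrosine motifs of receptors: motifs of the ITAM type recruit the kinase Syk, and motifs of the ITIM type recruit phosphatases such as SHP-1 (Ptpn6). Lyn and Fgr are well known from myeloid cells, Lck and Blk are known from T and B cells, and Src, Fyn and Yes1 are widely expressed.

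Values are the log2 expression values that the authors deposited, and differences on that scale are given as knockout minus wild type, with limma's standard error (SE) and its Benjamini-Hochberg adjusted p over all 15454 tested genes. A gene was tested when it reached a value of 1 in at least 3 libraries and called when the adjusted p was under 0.05. Of all tested genes 33.0% were called, 15.0% as higher and 18.0% as lower in the knockout, and the median difference was 0.0056. The scale shrinks the differences of low genes. Taking genes called both by limma and in the authors' deposited table, the difference divided by the authors' log2 fold change had a median of 0.88 for 1678 genes with a mean of at least 10, 0.32 for 649 genes with a mean from 5 to under 7, and 0.10 for 325 genes with a mean under 5. Any differences of Fyn, Yes1, Src and Blk can therefore be strongly understated, and those of Lck and Csk can be understated too. The ratios come from called genes alone, so their size for genes that were not called is uncertain. The table holds no read counts and the depth is unknown. In bulk RNA, fewer cells of a type and less RNA per cell cannot be told apart.

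Promoter sequences are shown for the members that were called, Fgr and Lck, and for Matk, a Csk homologue whose level moved the other way. Each is the 250 bases before a RefSeq start site on GRCm38.p6, written 5′ to 3′ in the direction of the gene. Of the 8 members, 6 (Fgr, Fyn, Src, Lck, Yes1 and Csk) matched a promoter entry. Capitals mark GAGGAA, a sequence that PU.1, the ETS factor of myeloid cells, is known to bind, or its reverse complement TTCCTC. The window of Fgr lies at chr4:132973845-132974094 (plus strand), the windows of Lck at chr4:129573642-129573891 and chr4:129558373-129558622 (minus strand), corresponding to an upstream and a downstream start site, and the window of Matk at chr10:81252685-81252934 (plus strand).
Fgr: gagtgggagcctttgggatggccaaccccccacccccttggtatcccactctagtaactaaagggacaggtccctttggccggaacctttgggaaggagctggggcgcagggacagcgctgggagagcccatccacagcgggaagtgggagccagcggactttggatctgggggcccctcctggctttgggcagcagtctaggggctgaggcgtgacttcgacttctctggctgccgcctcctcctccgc
Lck upstream start: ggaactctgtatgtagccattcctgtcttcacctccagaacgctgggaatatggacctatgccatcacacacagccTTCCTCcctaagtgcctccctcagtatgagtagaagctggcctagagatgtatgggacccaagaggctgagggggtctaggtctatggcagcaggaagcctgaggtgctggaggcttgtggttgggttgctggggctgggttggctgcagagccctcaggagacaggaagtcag
Lck downstream start: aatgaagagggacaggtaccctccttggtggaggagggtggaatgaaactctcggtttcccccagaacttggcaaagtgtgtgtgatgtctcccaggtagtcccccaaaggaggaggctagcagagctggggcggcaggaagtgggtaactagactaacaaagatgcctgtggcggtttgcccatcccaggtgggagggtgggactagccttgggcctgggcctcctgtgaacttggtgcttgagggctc
Matk: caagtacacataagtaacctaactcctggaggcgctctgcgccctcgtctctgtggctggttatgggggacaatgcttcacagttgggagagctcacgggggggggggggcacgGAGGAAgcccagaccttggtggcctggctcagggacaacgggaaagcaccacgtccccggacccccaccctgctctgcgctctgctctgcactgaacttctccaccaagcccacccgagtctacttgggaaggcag
The letters GAGGAA or TTCCTC occur in 23.3% of 32851 such windows. They occur in the upstream window of Lck and in that of Matk, with 1 match each, and not in the windows of Fgr or of the downstream Lck start. Among the members that were not called, Src had 1 match, the windows of Csk had 1 and 2, and Fyn and Yes1 had 0. The shorter GGAA within GAGGAA was not marked, and it does occur in the windows of Fgr and of the downstream Lck start. The TATA box core TATAAA, searched on both strands and present in 12.4% of all windows, has 0 matches in the 4 windows shown. The table holds gene-level values, so it does not say from which start site the Lck transcripts came. Matk has a further RefSeq start site, which is not shown.

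Fgr is a Src-family kinase of granulocytes and monocytes that acts downstream of integrins and Fc receptors (chromosome 4, 132974095 to 133001910, GRCm38, protein-coding). Its values were 10.57, 10.85 and 10.53 in the wild-type libraries and 7.98, 8.36 and 8.64 in the knockout libraries. All 3 knockout values lay far below all 3 wild-type values, and knockout library 1 was the lowest. The mean fell from 10.65 ± 0.17 (SD, n = 3) to 8.33 ± 0.33, a difference of -2.33 (SE 0.15, limma adjusted p = 2.18e-05, exact permutation p = 0.1, the smallest that 3 against 3 libraries allow). This is a 5.02-fold lower level on the linear scale. Fgr had the 13th deepest fall of the 15454 tested genes, and 26 genes (0.168%) were called with a fall of at least 2. This rank and count hold for the deposited scale, which shrinks the differences of lower genes more. The log2 fold change of Fgr in the authors' deposited table is -2.84 (adjusted p 6.95e-54).

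Lyn is the Src-family kinase that both activates and restrains signalling from cytokine and Fc receptors (chromosome 4, 3678115 to 3813122, GRCm38, protein-coding). Its values were 11.27, 11.44 and 11.44 in wild-type libraries against 11.23, 11.22 and 11.20 in knockout libraries. The knockout values all lay below the wild-type values, but by little, since the gap between the groups was narrower than the range within the wild type. The difference of -0.17 (SE 0.06, 95% interval -0.30 to -0.03) did not pass after adjustment (limma adjusted p = 0.0585, exact permutation p = 0.1). The call depended on the settings: Lyn passed without wild-type library 1 (difference -0.22, limma adjusted p = 0.0153) and among genes with a mean of at least 5 (0.0400), and stood at -0.07 after quantile normalization (0.371). For Lyn the authors' deposited table has -0.19 as log2 fold change (adjusted p 0.0436). An exon of the antisense long non-coding RNA Gm26857 overlaps Lyn, and the labels do not say whether counting used the strand.

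Lck is the kinase that starts T-cell receptor signalling by phosphorylating CD3 and Zap70 (chromosome 4, 129548344 to 129573641, GRCm38, protein-coding). Its values were 5.91, 5.98 and 5.98 with Prmt6 present and 5.61, 5.70 and 5.72 without it, so the groups did not overlap. It fell from 5.95 ± 0.04 (SD, n = 3) to 5.67 ± 0.06, a difference of -0.28 (SE 0.06, limma adjusted p = 0.00649, exact permutation p = 0.1). Lck has a larger log2 fold change in the authors' deposited table, -0.98 (adjusted p 0.00816). The microRNA gene Mir8119 lies within an exon of Lck on the same strand. Markers of T cells were measured in the same libraries. Cd3e, a chain of the T-cell receptor complex, stood at -1.97 in every library, at the floor of the scale, where the lowest value of the table also lies, and Zap70 at 0.39 to 0.41. Another CD3 chain, Cd3d, moved opposite to Lck, from 5.14 ± 0.02 to 5.58 ± 0.12 (SD, n = 3; limma adjusted p = 0.00120). It was the only 1 of 8 tested T-cell markers called (12.5%, against 33.0% of all tested genes). Lat, Cd2 and Cd5 differed by -0.15, -0.09 and -0.06 and Cd28 by 0.09, without a call (limma adjusted p = 0.122, 0.0597, 0.0509 and 0.0642). After quantile normalization Cd2 and Cd5 were called lower (0.0399 and 0.0207). Of 10 T-cell markers, 7 had a mean under 3. The log2 of the summed linear values of the 10 ran from 7.22 to 7.23 in the wild type and from 7.21 to 7.35 in the knockout. Lat made up 45.9% of that sum.

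Csk (chromosome 9, 57626646 to 57653631, GRCm38, protein-coding) did not pass. Its values were 6.52, 6.62 and 6.17 (wild type) against 6.22, 6.04 and 6.38 (Prmt6-/-), and the groups overlapped because wild-type library 3 lay below 2 of the knockout libraries. The means were 6.43 ± 0.24 and 6.21 ± 0.17 (SD, n = 3), a difference of -0.22 (SE 0.13, 95% interval -0.51 to 0.06, limma adjusted p = 0.218, exact permutation p = 0.3). Without wild-type library 3 Csk stood at -0.36 and passed (limma adjusted p = 0.0360), whereas the difference was -0.13 without wild-type library 2 and -0.14 without knockout library 2. Csk is at -0.62 (log2 fold change, adjusted p 0.206) in the authors' deposited table.

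The widely expressed members lay at low values. Fyn (chromosome 10, 39368855 to 39565381), which also acts in T cells and neurons, read 3.94, 3.99 and 4.07 in wild-type libraries against 4.12, 3.96 and 4.03 in knockout libraries. Yes1 (chromosome 5, 32611171 to 32687057), a close relative of Src, read 3.84, 3.79 and 3.85 against 3.91, 3.93 and 3.85. Both sets of groups overlapped, with differences of 0.04 (95% interval -0.08 to 0.16, limma adjusted p = 0.619) and 0.07 (95% interval -0.02 to 0.16, limma adjusted p = 0.191). Fyn stood at -0.002 without knockout library 1, and an exon of Gm10461, on the opposite strand, overlaps Yes1. Src (chromosome 2, 157418444 to 157471862), the founding member of the family, read 2.22, 2.23 and 2.21 against 2.19, 2.21 and 2.21, and its difference of -0.01 did not pass (limma adjusted p = 0.741). Blk (chromosome 14, 63372836 to 63417037), the kinase named for B lymphocytes, read -0.26, -0.25 and -0.26 against -0.26, -0.27 and -0.27, and did not reach the level needed for testing in either genotype. The intervals hold for the deposited scale and leave room for larger changes of low transcripts. The authors' deposited table gives Fyn, Yes1, Src and Blk log2 fold changes of 0.37, 0.77, -0.27 and -1.96, with adjusted p-values of 0.731, 0.386, 0.881 and 1.

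**Figure D1:**
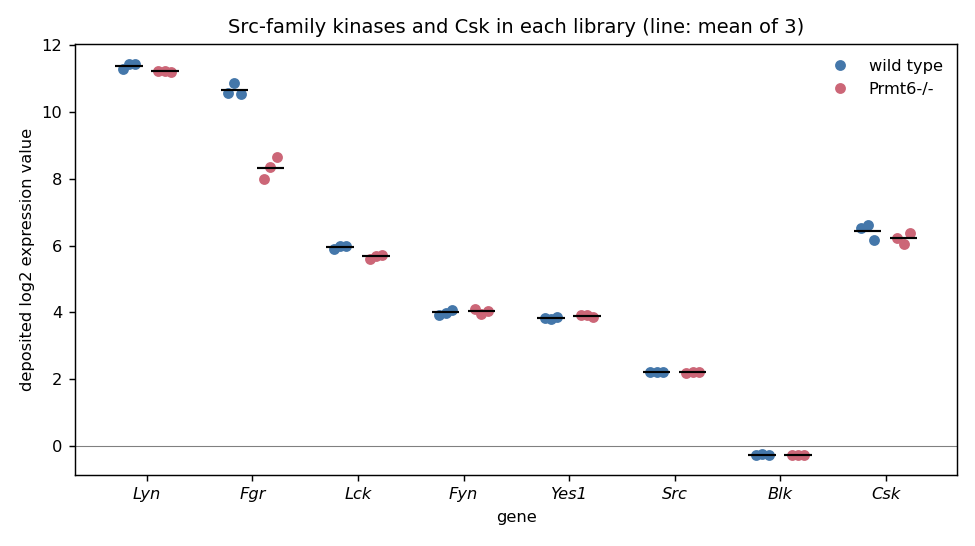
Deposited log2 expression value (y axis) of the 7 Src-family kinases and Csk (x axis) in the 3 wild-type and 3 Prmt6-/- libraries; each point is a library and each line a mean of 3. Fgr drops from 10.65 to 8.33, and Lck from 5.95 to 5.67. The scale can understate differences of the lower members.

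Of the 7 tested members, 2 (Fgr and Lck) were called and 5 were not. The share called was 28.6%, near the 33.0% of all tested genes. Both calls were lower, where 18.0% of all tested genes were called lower. The groups did not overlap for 3 of the 7 (Fgr, Lyn and Lck), all with the knockout lower, where 47.4% of all tested genes did not overlap and 24.4% did so with the knockout lower. The authors' deposited table has 3 of the 8 members (Fgr, Lyn and Lck) under an adjusted p of 0.05, where 21.7% of its genes above 0 are. The responses of the 4 members with a mean of at least 5 were compared within libraries, in 6 pairs. Between Fgr and Lyn the wild-type libraries differed by -0.73 ± 0.16 (SD, n = 3) and the knockout libraries by -2.89 ± 0.34, so that Fgr fell by 2.16 more than Lyn. Fgr also fell by 2.05 more than Lck and by 2.10 more than Csk. In each of these 3 pairs the knockout and wild-type differences were fully separated, with an exact two-sided permutation p of 0.1, the smallest that this design allows, or 0.15 adjusted over the 6 pairs. Lyn and Csk differed in response by 0.06 (exact permutation p = 0.8) and Lck and Csk by -0.06 (exact permutation p = 0.6), and both values changed sign on leaving out single libraries. Lyn and Lck differed in response by 0.11 (exact permutation p = 0.1). Lck and Csk lie where the scale shrinks differences more than at the level of Lyn and Fgr, and the near-equal responses depend on this: the log2 fold changes in the authors' deposited table are -0.19 for Lyn, -0.98 for Lck and -0.62 for Csk.

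Levels were compared between genes after division by the length of the longest annotated coding transcript, on a log2 scale per kilobase. In the wild type the order was Lyn at 9.59 ± 0.10 (SD, n = 3), Fgr at 8.90 ± 0.17, Csk at 4.98 ± 0.24, Lck at 4.83 ± 0.04, Fyn at 2.17 ± 0.07, Yes1 at 1.63 ± 0.03, Src at 0.25 ± 0.01 and Blk at -1.47 ± 0.01. The order was the same in the knockout, where Lyn stood at 9.42 ± 0.01 and Fgr at 6.58 ± 0.33. Csk and Lck overlapped in both genotypes, and every other pair of neighbours was separated in both.

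The make-up of the family changed mainly between Fgr and Lyn. On the linear length-scaled signal summed over the 7 kinases, Fgr made up 37.7%, 39.5% and 34.4% in the wild-type libraries and 9.41%, 11.9% and 14.2% in the knockout libraries. Lyn made up 59.3%, 57.8% and 62.6% with Prmt6 present and 86.6%, 84.0% and 81.8% without it. The share of Fgr was thus lower by 25.4 percentage points and that of Lyn higher by 24.3 points, without overlap between groups (exact permutation p = 0.1 for both). Lck held 2.20% ± 0.12 (SD, n = 3) (wild type) against 2.86% ± 0.06 (Prmt6-/-). This direction depends on the scale: with the fold changes of the authors' deposited table applied to the wild-type means, a choice made after seeing the data, the share of Lck went from 2.20% to 1.87%, that of Fgr from 37.3% to 8.72% and that of Lyn from 59.8% to 87.8%. The log2 of the summed signal was 10.33 ± 0.11 in wild-type libraries against 9.67 ± 0.03 in knockout libraries, a difference of -0.66 (exact permutation p = 0.1). The shares and the sum refer to these 7 kinases alone.

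**Figure D2:**
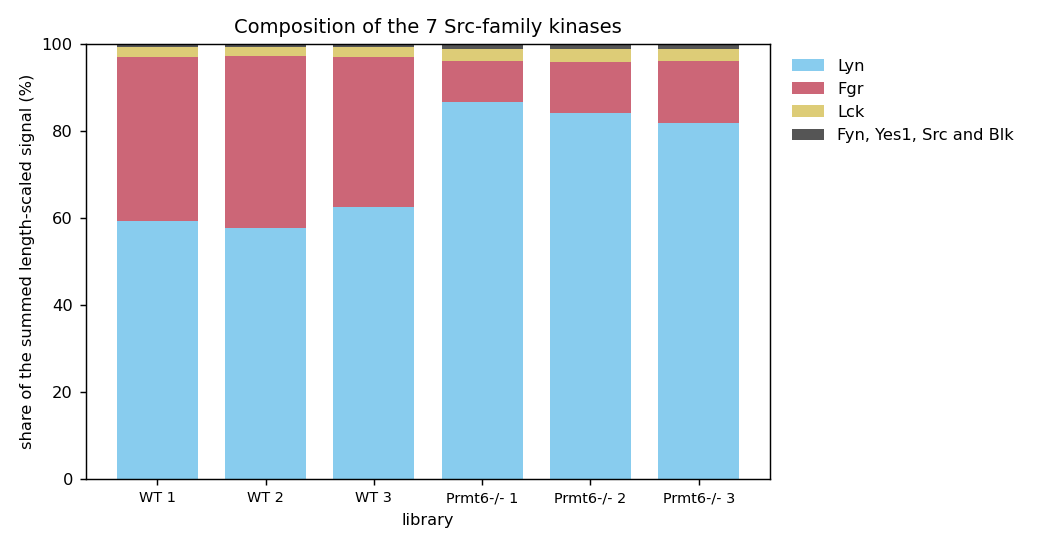
Share of the summed linear, length-scaled signal of 7 Src-family kinases (y axis, percent) in each library (x axis), stacked by kinase. The Fgr share is 34.4% to 39.5% in the wild type and 9.41% to 14.2% in the knockout, and Lyn takes up most of the difference.

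Genes that act with Csk to restrain the family were lower in part, with Matk rising. Of 16 tested genes, Csk among them, 6 were called lower and 1 higher (43.8% called, against 33.0% of all tested genes), and their median difference was -0.24. Matk, also called Chk, phosphorylates the same tail tyrosine as Csk (chromosome 10, 81252935 to 81263365, GRCm38). It read 10.63, 10.67 and 10.69 (wild type) against 11.66, 11.43 and 11.50 (Prmt6-/-). Every knockout value lay above every wild-type value, and the rise was 0.87 (SE 0.07, limma adjusted p = 3.35e-05). The authors' deposited table gives Matk a log2 fold change of 0.99. Its level was above that of Csk in every library of both genotypes also per length, since the coding transcript of Matk (2228 bases) is shorter than that of Csk (2749 bases).

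The deepest fall of the group was that of Ptpn6, the phosphatase SHP-1 that ITIM-bearing receptors recruit. It read 13.49, 13.46 and 13.38 in wild-type libraries against 12.28, 12.42 and 12.56 in knockout libraries, with no overlap, and fell by 1.03 (SE 0.07, limma adjusted p = 2.72e-05). Exons of the antisense gene Gm20531 overlap it, so its reads are uncertain. The adaptor Sla, which dampens receptor signalling together with Cbl, fell by 0.91 (limma adjusted p = 6.64e-05). Ptpn18, a phosphatase that binds Csk, fell by 0.69, the ubiquitin ligase Cbl by 0.55 and the docking adaptors Dok2 and Dok3 by 0.54 and 0.43. The membrane adaptors that bring Csk to the kinases did not pass: Pag1 differed by 0.02 (limma adjusted p = 0.843) and Lime1 by -0.05 (limma adjusted p = 0.556).

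Phosphatases known to take the inhibitory phosphate off the kinase tail were called lower in 4 of 6 cases and higher in 0. The share called was 66.7%, against 33.0% of all tested genes, and the median difference was -0.57. Ptprc, the leukocyte phosphatase CD45, read 12.71, 12.63 and 12.72 with Prmt6 present and 11.81, 11.96 and 12.06 without it, with no overlap, and fell by 0.74 (SE 0.07, limma adjusted p = 7.16e-05). Ptpre, which exists as a receptor and a cytoplasmic form and has an overlapping antisense gene, fell by 0.87 and Ptpn1, known as PTP1B, by 0.80. Ptprj, known as CD148, fell by 0.40 (limma adjusted p = 0.0135), a call that ended without wild-type library 2 (0.0521) or knockout library 2 (0.0548). Ptpra differed by -0.05 and Ptpn11, known as SHP-2, by -0.03, and neither passed (limma adjusted p = 0.766 and 0.834). Ptpra stood at 0.07 without wild-type library 1, and Ptpn11 at 0.02 after quantile normalization.

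**Figure D3:**
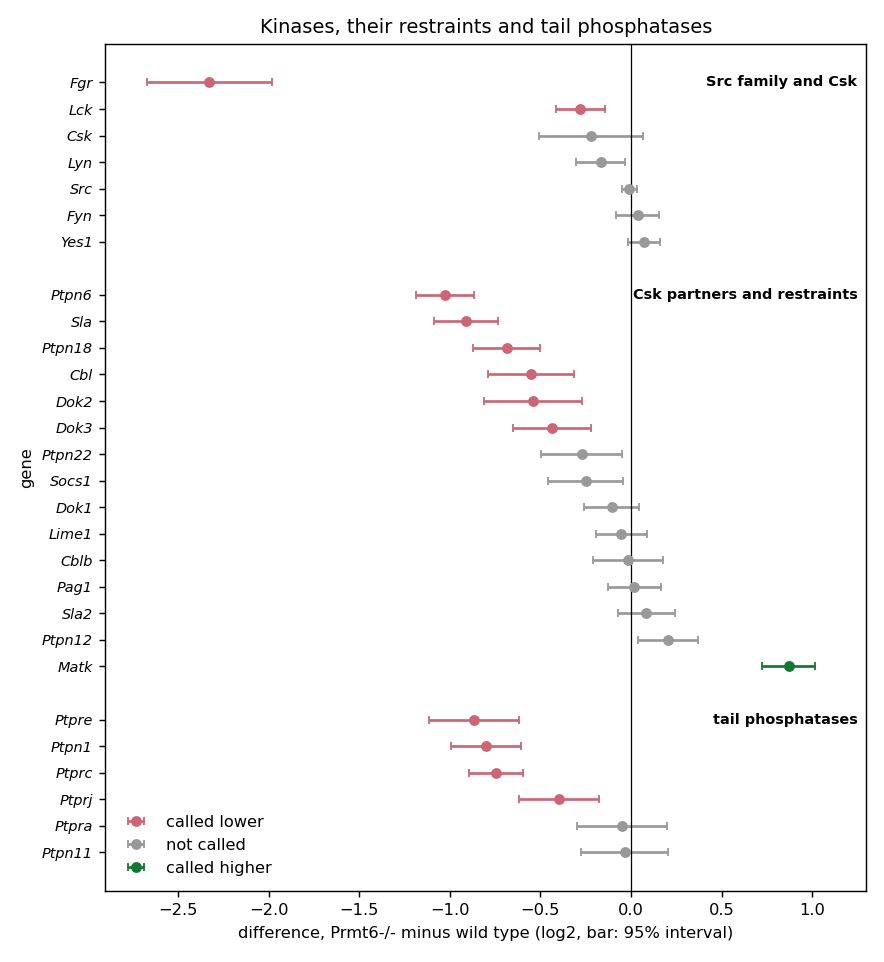
Difference between Prmt6-/- and wild-type libraries (x axis, log2, with 95% interval) for the tested Src-family kinases and Csk, Csk partners and restraints, and tail phosphatases (y axis); colour gives the call at an adjusted p of 0.05. Fgr stands at -2.33, Ptpn6 at -1.03 and Ptprc at -0.74, and Matk is the only gene called higher, at 0.87.

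Receptors and adaptors that carry ITAM or ITIM motifs, or signal through partners that do, were called lower in 12 of 19 tested cases and higher in 0. The share called was 63.2%, against 33.0% of all tested genes, and the median difference was -0.58. Siglece, an inhibitory sialic acid receptor, read 10.87, 10.92 and 10.59 against 6.72, 7.16 and 7.52. It fell by 3.66 (SE 0.18, limma adjusted p = 5.34e-06), with no overlap between the groups. Pirb, an inhibitory receptor for MHC class I, fell by 1.23, and reads shared with its near-identical Pira relatives could enter its value. The receptors Cd33 and Sirpa fell by 1.09 and 0.66. Both ITAM adaptors of myeloid cells fell, Fcer1g by 0.58 (limma adjusted p = 6.93e-05) and Tyrobp by 0.63 (limma adjusted p = 0.000801). Among the Fc receptors the inhibitory Fcgr2b fell by 0.88, and Fcgr3, which signals through Fcer1g, read 13.28 ± 0.09 and 13.30 ± 0.09 (SD, n = 3; limma adjusted p = 0.870). Cd79b, an ITAM chain of the B-cell receptor, fell by 1.15, while Pax5, a B-cell transcription factor, stood between 0.19 and 0.22 in all libraries. Of 10 B-cell markers, 5 had a mean under 3, and of the 8 tested only Cd79b was called (12.5%, against 33.0% of all tested genes). The log2 of the summed values of the 10 ran from 9.64 to 9.77 in the wild type and from 8.55 to 8.88 in the knockout. Cd79b made up 88.3% of that sum.

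Effectors and substrates of the family were called lower in 15 of 27 tested cases and higher in 2. The share called was 63.0%, against 33.0% of all tested genes, and the median difference was -0.22. Bcar1, an adaptor of adhesion signalling, was listed at 0 in every library. Fyb, an adaptor of integrin activation, went from 8.89 ± 0.16 (SD, n = 3) to 7.24 ± 0.14 and fell by 1.64 (SE 0.10, limma adjusted p = 1.64e-05). Prkcd, a protein kinase C, fell by 1.29, the adaptor Pik3ap1 by 1.22, the adaptor SLP-76 (Lcp2) by 1.08 and the cortactin relative Hcls1 by 0.92. Syk, the kinase that docks on phosphorylated ITAMs, fell by 0.56 and the exchange factor Vav1 by 0.49. Cortactin itself (Cttn), an actin regulator known as a Src substrate, rose from 6.99 ± 0.20 to 7.65 ± 0.14 (SD, n = 3; difference 0.66, limma adjusted p = 0.00210). The phospholipase Plcg1 rose by 0.20 (limma adjusted p = 0.0376), a call that ended after quantile normalization (0.0608) and without any of the wild-type libraries (0.0935, 0.0647 and 0.0861 for libraries 1, 2 and 3) or knockout libraries 1 (0.0970) or 2 (0.128).

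Other cytoplasmic tyrosine kinases did not move one way: 5 of 18 tested were lower and 2 higher, and their median difference was 0.05. The 38.9% called is near the 33.0% of all tested genes, and the split was 5 lower and 4 higher after quantile normalization or without the trend, and 3 against 3 without knockout library 3. Fes fell by 0.36 and Tnk2 by 0.29, and the Tnk2 call (limma adjusted p = 0.0284) ended without wild-type library 2 (0.0979) or 3 (0.0598) or knockout library 2 (0.0722) or 3 (0.0923). Fer, a relative of Fes, rose by 0.50 (limma adjusted p = 0.00670). Matk, described above, also rose.

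**Figure D4:**
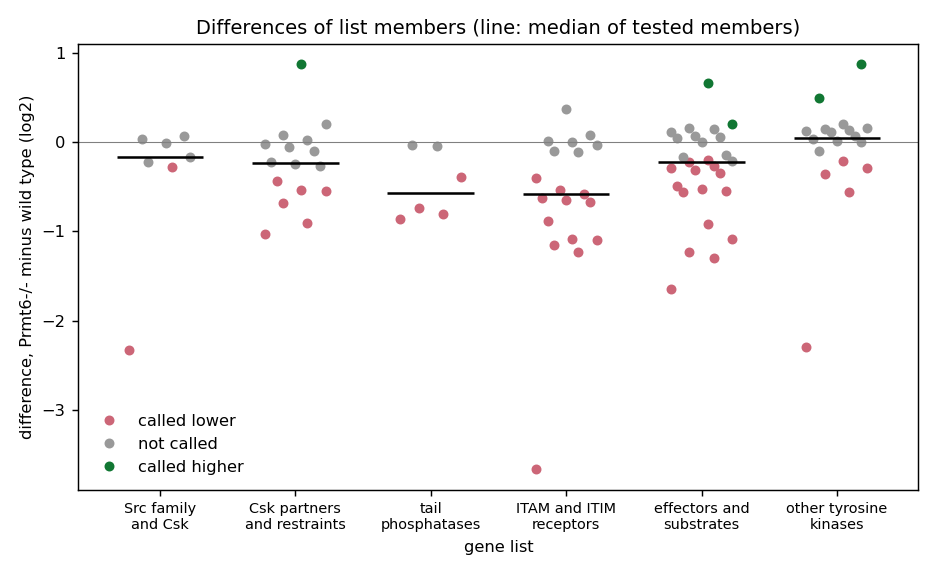
Difference between Prmt6-/- and wild-type libraries (y axis, log2) for each tested gene of 6 gene lists (x axis), coloured by call, with the median of the tested genes as a line. The medians run from -0.58 for the ITAM and ITIM receptors to 0.05 for the other tyrosine kinases, and Siglece at -3.66 is the lowest point.

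Genes whose profile lay closest to that of Fgr over the 6 libraries were sought by the root mean square distance between profiles centred on the wild-type mean, among 7455 genes of at least median level. The nearest was Ebi3, a cytokine subunit, at a distance of 0.080 (values 10.99, 11.01 and 10.78 in wild-type libraries against 8.23, 8.69 and 8.89 in knockout libraries). Also among the 5 nearest were Bcl2a1a, an anti-apoptotic gene with near-identical copies (0.13), the acyltransferase Lpcat2 (0.17) and the surface glycoprotein Cd52 (0.18). These 4 genes were called lower, with differences between -2.39 and -2.20. A profile over 2 groups of 3 is dominated by the difference between the groups.

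Markers of myeloid maturation were measured beside these genes. Of 10 granulocyte-macrophage progenitor markers 2 were called higher and 0 lower (20.0% called, against 33.0% of all tested genes), and none had a mean under 3. The granule protease Elane rose from 16.56 ± 0.15 to 18.01 ± 0.03 (SD, n = 3; difference 1.45, limma adjusted p = 3.65e-06), or by 0.81 after quantile normalization, and the protease Ctsg rose by 0.51 (limma adjusted p = 0.00386). The log2 of the summed progenitor markers was 17.53 to 17.97 with Prmt6 and 18.42 to 18.57 without it, with no overlap, and Elane made up 62.0% of the linear sum. The stem and progenitor receptor Kit read 9.66 to 10.30 and Cd34 read 10.36 to 10.56 over all 6 libraries. Of 9 tested monocyte and macrophage markers 3 were called lower and 2 higher (55.6% called, against 33.0% of all tested genes). Among them Csf1r fell by 1.83, with values of 10.58, 10.67 and 10.41 against 8.36, 8.83 and 8.99, while Ccr2 rose by 1.07. The log2 of their summed values ran from 14.98 to 15.12 in the wild type and from 15.00 to 15.04 in the knockout, a sum of which Ly6c2, at 14.46 ± 0.10 and 14.48 ± 0.07 (SD, n = 3), made up 67.9%. The log2 of the summed neutrophil markers ran from 10.68 to 10.89 in the wild type and from 10.73 to 11.70 in the knockout. Of 10 neutrophil markers 2 were called higher and 1 lower (30.0% called, near the 33.0% of all tested genes). Of these calls, Camp (higher, limma adjusted p = 0.0281) ended without any of the wild-type libraries (0.0563, 0.0605 and 0.0843 for libraries 1, 2 and 3). The call of Mmp8 (lower, limma adjusted p = 0.0251) ended without wild-type library 1 (0.0769) or 3 (0.0692) or knockout library 1 (0.0934) or 2 (0.0916). Both calls also ended without the trend (0.0719 for Camp and 0.0587 for Mmp8) and with limma's robust option (0.129 and 0.0571). S100a9 differed by -0.41 and was not called (limma adjusted p = 0.210), but was called lower without knockout library 3 (-0.72, 0.00384). The neutrophil chemokine receptor Cxcr2 rose by 1.18, and the neutrophil surface marker Ly6g stood between 1.90 and 1.99. The part of these markers in the fall of Fgr was not tested.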

How the data were processed

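Expression in 6 libraries was read from a single table of all genes. Trim Galore, kallisto, HOMER and the build GRCm38 are named, per the submitters' processing notes, with no versions. The authors' annotation is not given in those notes. Per the file headers, the table was written by HOMER's differential expression command from a count table of 3 wild-type and 3 knockout columns. The authors normalized the deposited log2 values between libraries, by a transformation that is not named. The authors' deposited table also gives log2 fold changes and p-values from a test that it does not name. Depth is unknown, so no counting interval is given.

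The genotypes were contrasted in R 4.3.3 using limma 3.58.1 (two-sided moderated test, mean-variance trend) on the log2 values as deposited. Within-library differences and shares were tested by exact permutation (scipy 1.17.1). Members and gene lists were chosen with earlier results of these data known. Named genes are the members, Prmt6, up to 6 genes of smallest p per list and the 5 nearest profiles to members called with a difference of at least 1; other named genes (Dok2, Pag1, Lime1, Tyrobp, Fcgr2b, Fcgr3, Cttn, Plcg1, Bcar1, Ptk2, Lilrb4a, Cd3e, Zap70, Pax5, Cd34, Ly6c2, Ly6g and Ngp) were chosen after their values were seen. Results for some genes that the rule names are not reported here. Adgre1 and Lilrb4a were matched through RefSeq synonyms. Coordinates and lengths are from GENCODE M21 and promoters from RefSeq, both on GRCm38. On data simulated for the 15454 genes, 16% of 50 genes with a mean of at least 5 that were changed by 0.25 (log2) were called, 80% of 50 changed by 0.5, 98% at 1 and 100% at 2, and 8 of 15254 unchanged genes were called. Far fewer genes were changed there than the 5102 called in the data. The adjustment is stricter when fewer genes change, so these rates do not give the share found in the data.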

Additional observations from a re-analysis of the deposited data

How the results depend on the processing

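Of 272 recomputed values, 248 kept their direction and their side of the threshold, or moved by less than the spread. Fgr differed by -2.48 to -2.15 and Lck by -0.30 to -0.25 on leaving out each library, and both passed in every alternative run. Lyn passed without wild-type library 1 (-0.22) and among genes with a mean of at least 5 (-0.17), with a range of -0.22 to -0.14 on leaving out libraries. Csk ranged from -0.36, where it passed, to -0.13, and Fyn from -0.0018 to 0.075. The Lyn and Csk comparison ranged from -0.042 to 0.22 and that of Lck and Csk from -0.16 to 0.087. The shifts in share (percentage points) without length scaling were 0.059 for Src, 0.41 for Lck, 0.011 for Blk and 0.21 for Yes1. After quantile normalization they were 0.045, 0.48, 0.014 and 0.13. The cause was not tested. With the authors' deposited fold changes applied to the wild-type means, an alternative chosen after seeing the data, the shifts were -28.5 for Fgr, 28.0 for Lyn, 0.40 for Fyn, 0.036 for Src and 0.44 for Yes1, and they turned to -0.33 for Lck and -0.016 for Blk. No value is given for Blk, Fyn, Src and Yes1 among genes with a mean of at least 5, which they do not reach. Calls numbered 3891 to 4598 on leaving out libraries, and 5205 after quantile normalization, when 2827 were higher and 2378 lower.

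With the replicate number as a block, 5074 genes were called against 5102 without it, and Fgr and Lck kept their calls (limma adjusted p = 8.05e-05 and 0.0111). The numbers were not taken as pairs, because the deviations of same-numbered libraries correlated by 0.095, 0.073 and 0.17, although each library correlated best with its own number. The missing depth limits low members most: Blk, Src, Yes1 and Fyn cannot be judged on this scale.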

Other observations

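Within the knockout, Fgr, Ptpn6, Ptprc and Siglece had their lowest value in knockout library 1 and their highest in knockout library 3. Among the 2778 genes called lower, knockout library 1 was the lowest of the 3 for 1646 (59.3%) and knockout library 3 the highest for 1629 (58.6%). For the ITAM and ITIM receptors that were called lower, knockout library 3 was the highest for 11 of 12, and for the tail phosphatases for 4 of 4. Among the knockout libraries, library 3 also held the highest values of the neutrophil granule genes Camp (9.61, against 8.37 and 8.46) and Ngp (10.13, against 8.35 and 8.80). The same held for Mpo (15.72, against 13.34 and 14.37), which was 15.27, 15.19 and 16.29 in the wild-type libraries. Without knockout library 3 the difference of Fgr was -2.48.

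Ptk2, the focal adhesion kinase, stood at 1.59 in all 3 wild-type libraries and at 1.59, 1.74 and 1.64 in knockout libraries, a difference of 0.07 that did not pass (limma adjusted p = 0.144). In the authors' deposited table its log2 fold change is 5.11 (adjusted p 0.0456). Lilrb4a, an ITIM receptor listed under its older symbol Lilrb4, spread widely within a genotype, with wild-type values of 9.53, 9.06 and 7.48 and knockout values of 9.34, 8.37 and 9.47 (limma adjusted p = 0.595).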
